A study of Arabidopsis thaliana with 18 samples.

Results

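The transcript response of Arabidopsis seedlings to a cytokinin was taken from 8 of the 18 one-colour arrays in the series. They are the 4 arrays of benzyl adenine (BA) treated wild type (WT, accession Col-0) and crf6 mutant seedlings and the 4 arrays of untreated seedlings of the same genotypes, with 2 arrays in each group. They were chosen by their sample titles, and the comparison keeps genotype as a block, so that BA is set against untreated within WT and within crf6 and the changes are averaged. CRF6, short for CYTOKININ RESPONSE FACTOR 6, encodes an AP2/ERF transcription factor, and per the series description the treatments were meant to find the genes it acts on. Per the labels, seedlings of 10 days were lifted from plates and floated on 3 mM MES buffer for 1 h, and then BA was brought to 2 µM for 6 h. Treated and control solutions alike held 0.2% DMSO. The labels give no treatment time for untreated samples and no allele for the crf6 mutant. Nor do they tell whether replicates are separate cultures: the p-values below measure the spread between replicate samples only, and that spread may be technical. The remaining arrays hold the same genotypes with 20 mM H2O2 and a line named CRF6oe, and are used only for values beside the BA response.

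Cytokinins are plant hormones bound by histidine kinase receptors in the membrane. The receptors pass a phosphate group through shuttle proteins to type-B response regulators in the nucleus, which switch on target genes. Among these targets are the type-A response regulators, which damp the signal, and enzymes that oxidise the hormone or join it to glucose lower its active level. In seedlings, cytokinin is known for promoting shoot growth and greening and for holding back root growth and lateral root formation. BA is a synthetic cytokinin.

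Levels are on a log2 scale, so a difference of 1 is a 2-fold change, and 16548 genes with a named feature were tested. The log2 levels of replicate arrays in the 4 groups correlated over genes at r = 0.985 to 0.991, and other pairs of the 8 arrays at 0.975 to 0.990. The number of arrays limits the precision, and the median standard error (SE) of a pooled change was 0.13. No named feature was paired with CRF6, so the mutant label was not checked on it. Of 21 light-harvesting antenna genes, which mark green tissue, 4 were measured, with a median untreated level of 9.13. Levels of different features are not comparable, so this does not test the seedling label. Whole seedlings were used, so that fewer cells of a type and less RNA per cell cannot be told apart in any gene below.

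With BA, 261 genes were higher (1.58% of those tested) and 137 were lower (0.828%) at an adjusted p under 0.05 in limma with Benjamini-Hochberg adjustment, the threshold for a gene to be called. The largest rises included both measured type-A response regulators, and a cytokinin glucosyltransferase rose with them. Genes of ER bodies and RNA polymerase I subunits were among the rises, and the floral repressor ATC and a class III peroxidase were among the largest falls. Called rises ran from 1.35-fold to 14.3-fold with a median of 1.68-fold, and called falls from 1.37-fold to 8.02-fold with a median of 1.71-fold. A change of at least 2-fold was reached by 58 of the called rises and 42 of the called falls. The BA arrays all lay above the untreated arrays for 251 of the 261, and all below for 123 of the 137. Over all genes tested, such separation was found for 5.12% upwards and 3.83% downwards. Within WT and within crf6 the BA and untreated arrays did not overlap for any of the 398, against 7.61% of all genes upwards and 7.08% downwards. The calls were chosen on these same arrays, which largely fixes such separation, so these counts give the calls no separate support. The balance of directions depended on scaling: when each array was centred on its median, 190 genes were called higher and 245 lower, and with quantile normalization 210 and 193.

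The type-A response regulators gave the largest change of any cytokinin list. Of 10 listed, 2 were measured, and both rose, against 1.58% of all genes called higher. ARR15 measured 4.03 and 3.20 on the untreated WT arrays and 2.55 and 3.59 on the untreated crf6 arrays, against 7.58, 7.11, 7.21 and 6.81 with BA. The groups lay far apart, with the lowest BA array more than 2 log2 units above the highest untreated one. This was the largest rise of all 16548 genes, at 3.84 ± 0.26 (SE, n = 4 against 4), or 14.3-fold, with limma's adjusted p = 0.000149. RR16, a second regulator of this type listed elsewhere as ARR16, stood at 2.98, 2.95, 2.62 and 3.15 untreated and at 5.19, 5.11, 6.02 and 5.30 with BA. Its rise was 2.48 ± 0.19 (limma adjusted p = 0.000383), and here too no BA array came near an untreated one. ARR15 rose by 3.73 in WT and 3.94 in crf6, and RR16 by 2.19 and 2.77. The difference between the genotypes was 0.21 ± 0.54 for ARR15 and 0.58 ± 0.36 for RR16, with no call.

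The upper steps of the pathway were thinly covered. None of the listed receptors, phosphotransfer proteins, cytokinin response factors or synthesis genes had a named feature, and those genes were not analysed here. Of 11 type-B response regulators, the transcription factors that carry the signal into the nucleus, 3 were measured and 0 were called. The share called among all genes was 2.41%. RR18 changed by -0.12 ± 0.11 and RR19 by -0.09 ± 0.10. RR21 measured 3.55, 3.36, 3.71 and 3.08 untreated and 2.45, 3.04, 2.68 and 2.39 with BA. Its BA arrays lay just below its untreated ones, and the difference of -0.79 ± 0.18 missed the threshold (limma adjusted p = 0.053). In CRF6oe, RR21 had a value of 0.71 in the opposite direction.

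Among the genes that conjugate or degrade cytokinin, 3 of 12 listed were measured and 1 rose, against 1.58% of all genes called higher. UGT76C2, which joins glucose to ring nitrogens of cytokinins, measured 5.49, 5.26, 5.49 and 5.49 on the untreated arrays and 6.91, 6.84, 6.81 and 7.11 on the BA arrays. The values within each condition were close together and the conditions well apart. The rise was 1.49 ± 0.11, or 2.81-fold (limma adjusted p = 0.000308), and was 1.50 in WT and 1.48 in crf6. Its neighbour in function, UGT76C1, which catalyses the same kind of reaction, had a change of -0.02 ± 0.12, and UGT73C1, which forms O-glucosides, of -0.28 ± 0.25. The 1 measured gene of cytokinin transport, AT1G02630, had a change of 0.05 ± 0.18.

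**Figure D1:**
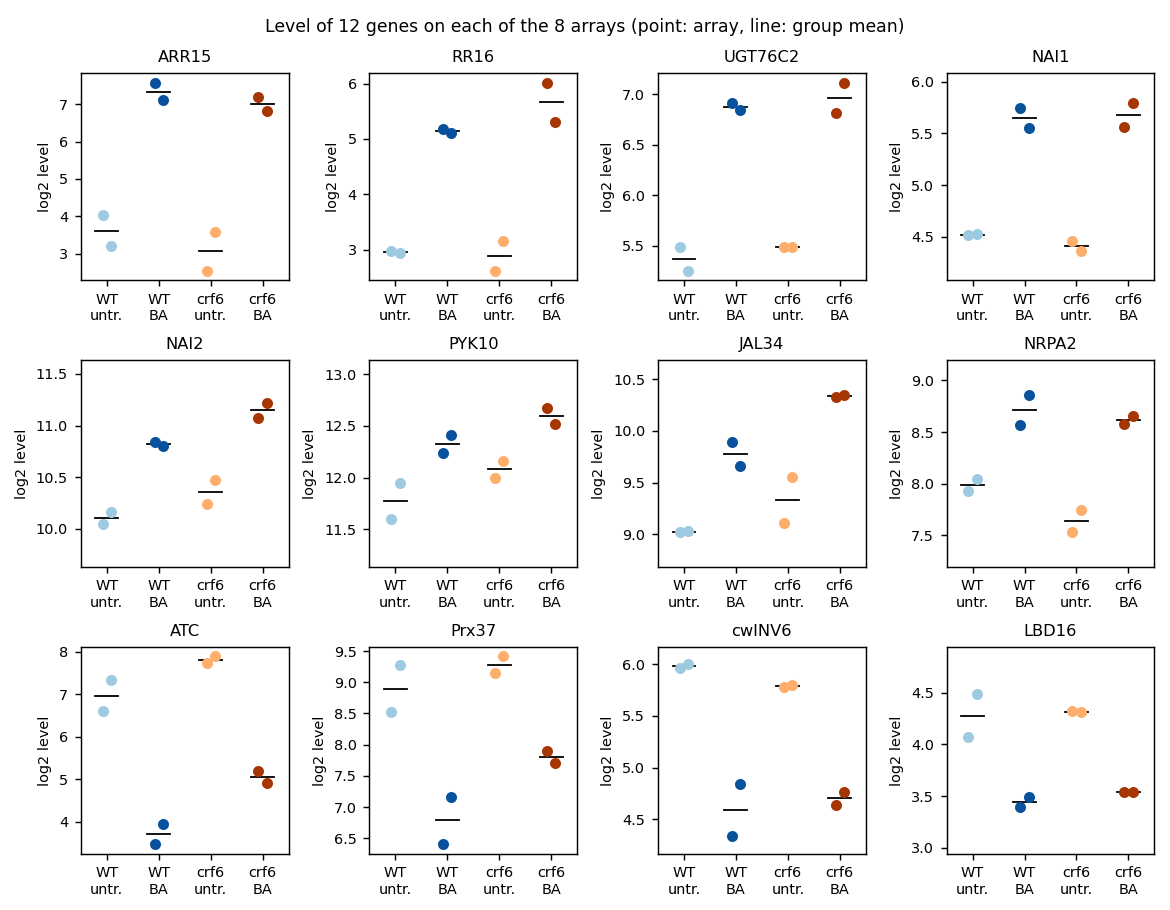
Level (log2) of 12 genes on each of the 8 arrays, by genotype and treatment, where points are arrays and lines are group means of 2. ARR15 runs from 2.55 to 4.03 untreated and from 6.81 to 7.58 with BA, and the BA and untreated points do not overlap in any of the 12 panels. The 12 genes were picked from the called ones, which largely fixes this separation. Among all genes tested it was found for 5.12% upwards and 3.83% downwards.

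Most measured members of a list of genes linked to ER bodies rose. ER bodies are compartments of the endoplasmic reticulum in Brassicaceae seedlings and roots that store beta-glucosidases used in defence, and jacalin-related lectins (JAL) bind to the released enzyme. Of 8 measured genes of this list, 6 rose and 0 fell, with a median change of 0.80, against -0.02 over all genes and 1.58% of all genes called higher. The list was drawn up after its members had been seen among the rises. Its only measured beta-glucosidase is PYK10. BGLU21 and BGLU22 are not on it and were not called, with changes of -0.34 ± 0.24 and 0.51 ± 0.18. NAI1, the transcription factor needed for ER bodies to form, measured 4.51, 4.53, 4.46 and 4.37 untreated and 5.75, 5.55, 5.56 and 5.80 with BA. All 4 BA arrays of NAI1 lay about 1 unit above all untreated ones, a rise of 1.20 ± 0.11 (limma adjusted p = 0.000934). NAI2, a structural component of the bodies, stood at 10.04, 10.16, 10.24 and 10.47 untreated and at 10.84, 10.80, 11.07 and 11.22 with BA. This was a rise of 0.76 ± 0.10 (limma adjusted p = 0.00777), in which the crf6 arrays were higher than the WT arrays of the same treatment.

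PYK10, the main beta-glucosidase of these bodies, ranged from 11.60 to 12.16 untreated (mean 11.93 ± 0.23, SD, n = 4) and from 12.24 to 12.67 with BA (12.46 ± 0.18). The conditions were separated by a narrow margin, and the rise of 0.53 ± 0.11 (limma adjusted p = 0.0458) lost its call whichever of the 8 arrays was left out. JAL34 measured 9.02, 9.03, 9.11 and 9.55 untreated and 9.89, 9.66, 10.33 and 10.35 with BA, a rise of 0.88 ± 0.13 (limma adjusted p = 0.00988). JAL33 rose by 0.88 ± 0.14 and JAL31 by 0.84 ± 0.14, while JAL22 had a change of 0.20 ± 0.11 and JAL23 of -0.24 ± 0.29. JAL33 and JAL34 lie next to each other in the genome, and whether the feature of one also binds transcripts of the other was not tested. With each array centred or quantile-normalized, 5 of the 8 kept a call as a rise, and with 1 array left out between 4 and 5. Under H2O2, which shares the untreated arrays with BA, the values went both ways over the list. They were -1.44 for NAI2, -1.45 for JAL34, -0.75 for PYK10 and -0.84 for JAL31 (limma adjusted p = 8.24e-05, 2.0e-04, 0.00716 and 0.0232, 4 arrays against 4), but 1.11 for JAL23 (limma adjusted p = 0.0251). NAI1, JAL33 and JAL22 had -0.46, -0.50 and -0.48 and were not called with H2O2.

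The beta-glucosidase list was also added after values were seen. Of 24 measured, 2 rose, PYK10 and BGLU47, and 0 fell, with a median change of -0.05. The shares over all genes were 1.58% called higher and 0.828% lower, and counts this small are not a result about the family. BGLU47 stood at 3.43, 3.76, 3.61 and 3.95 untreated and at 4.60, 5.30, 6.02 and 5.82 with BA. It was higher on every BA array, by 1.36 in WT and 2.14 in crf6, with a pooled rise of 1.75 ± 0.21 (limma adjusted p = 0.00434). BGLU22 and BGLU21 had changes of 0.51 ± 0.18 and -0.34 ± 0.24.

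Genes for RNA polymerase I, which transcribes ribosomal RNA, and for ribosome assembly also rose. Of 10 measured, 7 rose and 0 fell, against 1.58% of all genes called higher, and the median change was 0.52, against -0.02 over all genes. This list, too, was drawn up after its members were seen. NRPA2, a large subunit of RNA polymerase I, measured 7.93, 8.04, 7.54 and 7.75 untreated and 8.56, 8.86, 8.57 and 8.66 with BA. The lowest BA array was above the highest untreated one, and the rise was 0.85 ± 0.12, or 1.80-fold (limma adjusted p = 0.00791). NRPA1, its partner in the catalytic core, rose by 0.74 ± 0.16 (limma adjusted p = 0.0444). IMP4, needed to process pre-ribosomal RNA for the small subunit, rose by 0.72 ± 0.14. AT5G14520 (PESCADILLO) and AT5G52820 (NOTCHLESS), which act on the large subunit, rose by 0.62 ± 0.11 and 0.52 ± 0.10. AT5G41190 (NOB1), an endonuclease of small-subunit maturation, rose by 0.53 ± 0.11, and PCN (POPCORN), a WD-repeat protein, by 0.48 ± 0.10. The exosome genes RRP41L, RRP45a and RRP41 had positive changes of 0.41 ± 0.16, 0.38 ± 0.11 and 0.11 ± 0.18 that missed the threshold. The calls depended on the fit. With 1 array left out, between 1 and 3 of the 10 were called, and NRPA2 alone kept its call in all 8 such fits. On all 8 arrays, 3 were called with 4 group means and 2 when unnamed features were tested too. With 9 group means on 18 arrays 2 were called. A replicate block or a trended, robust eBayes left 7 called. The median stayed between 0.49 and 0.57 when an array was left out and was 0.44 when each array was centred on its median, with 4 called.

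**Figure D2:**
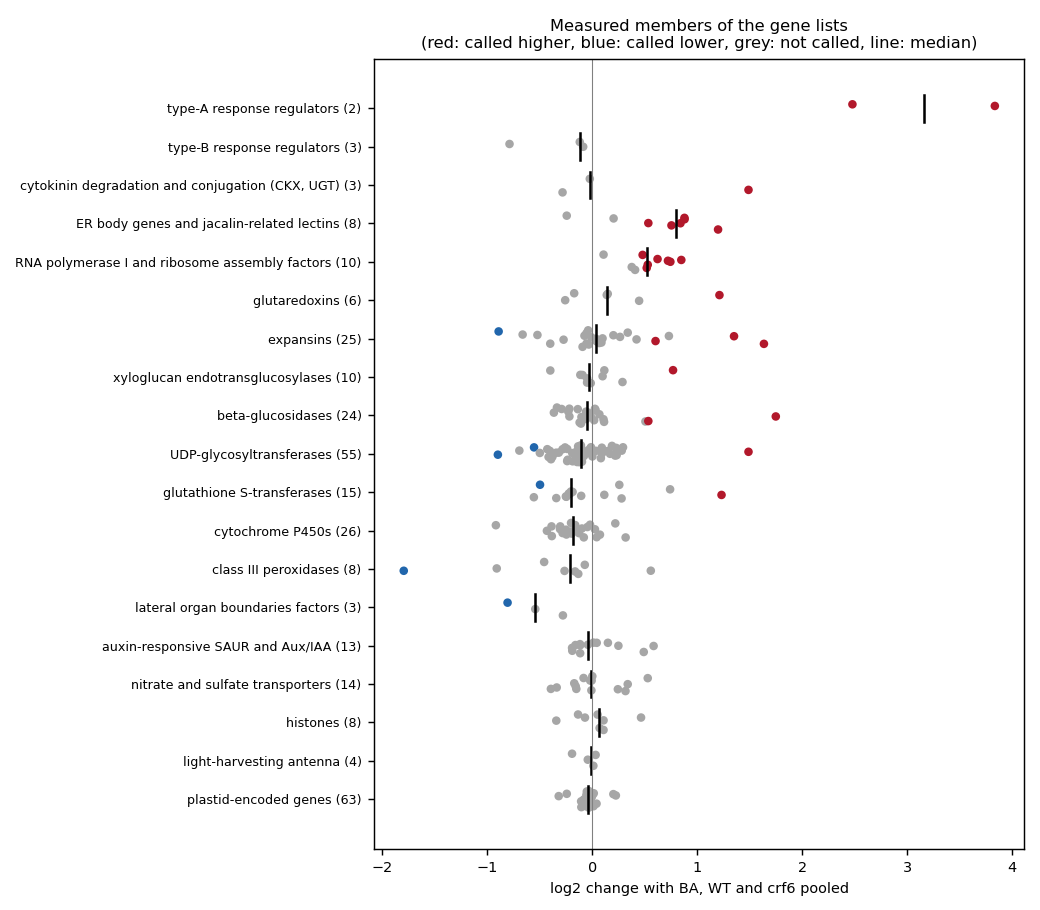
Log2 change with BA (WT and crf6 pooled) of every measured member of 19 gene lists, with the number measured in parentheses, called rises in red, called falls in blue and the list median as a line. The type-A response regulators lie at 2.48 and 3.84, and the ER body and ribosome assembly lists have medians of 0.80 and 0.52. The 63 plastid-encoded genes, with a median untreated level of 13.10 near the top of the scale, sit near 0 with none called.

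Single cell wall genes were called in each direction. Expansins loosen the wall during growth, and of 25 measured 3 rose and 1 fell, against 1.58% and 0.828% of all genes, with a median change of 0.04. EXPB3 measured 6.68, 7.37, 8.03 and 8.00 untreated and 8.54, 9.30, 9.33 and 9.45 with BA, all above the untreated arrays, and rose by 1.64 ± 0.21 (limma adjusted p = 0.00583). EXPA15 rose by 1.35 ± 0.26 and EXPA4 by 0.60 ± 0.13, although the calls of both were lost in most fits with 1 array left out. EXLB1, an expansin-like gene, fell by 0.89 on the log2 scale (SE 0.14). XTH32, a wall-remodelling xyloglucan endotransglucosylase, rose by 0.77 ± 0.11 as the only called member of 10 measured. PMEPCRF, a pectin methylesterase, fell by 0.74 (SE 0.15), the only called gene of 4 measured on the pectin enzyme list. That list was matched by words, so pectin enzymes known here by locus code only, called ones included, can be missing from it. LAC16, a laccase, rose by 0.59 ± 0.11.

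The class III peroxidase list, enzymes that act on wall polymers and peroxide, held 8 measured genes with 0 called higher and 1 lower. Among all genes, 1.58% were called higher and 0.828% lower. It was matched by words in gene names, so members known here by locus code only can be missing. The counts are therefore those of the list and not of the family. Prx37 measured 8.52, 9.28, 9.15 and 9.42 untreated and 6.40, 7.17, 7.90 and 7.71 with BA. Every BA array was below every untreated one, and the fall was of 1.79 on the log2 scale (SE 0.23, or 3.47-fold, limma adjusted p = 0.00574). AT4G08780, the next gene along the chromosome, is known here by locus code only and is not on the list. It measured 6.85, 7.07, 7.35 and 7.78 untreated and 4.20, 4.39, 5.48 and 5.24 with BA, with a change of -2.43 ± 0.15 (limma adjusted p = 0.000111). Both neighbours were lower on every BA array, and whether their features tell them apart was not tested.

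Few enzymes that conjugate small molecules or handle redox state were called, and the counts below stand against 1.58% of all genes called higher and 0.828% lower. With lists of this size, such counts are not a result about the families, and members known here by locus code only can be missing. Of 55 UDP-glycosyltransferases, 1 rose (UGT76C2) and 2 fell: UGT76B1, which glucosylates defence-related acids, by 0.90 (SE 0.16), and GT72B1, which acts on phenolic compounds, by 0.55 (SE 0.10). Of 15 glutathione S-transferases, GSTU26 rose by 1.23 ± 0.21 and GSTU27 fell by 0.50 (SE 0.10). Of 6 genes on the glutaredoxin list, small thiol oxidoreductases, ROXY2 rose by 1.21 ± 0.21, from 3.24, 3.06, 2.52 and 2.70 to 3.75, 3.98, 4.01 and 4.62. The ROXY2 arrays did not overlap, and the rise was 0.72 in WT and 1.71 in crf6. ATMDAR2, a monodehydroascorbate reductase of the ascorbate cycle, fell by 0.58 (SE 0.12), and had a value of 1.18 with H2O2. Flavin monooxygenase FMO fell by 0.87 (SE 0.19) and had 1.17 with H2O2. Of 26 cytochrome P450 genes, none was called by limma, against 2.41% of all genes called in either direction, and their median change was -0.18.

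Developmental regulators were found on both sides. The largest fall of all genes was that of ATC, a relative of TERMINAL FLOWER 1 that holds back flowering. It measured 6.60, 7.33, 7.73 and 7.89 untreated and 3.48, 3.95, 5.19 and 4.92 with BA. The conditions were well apart, with WT lower than crf6 under both, and the fall was of 3.00 on the log2 scale (SE 0.19, or 8.02-fold, limma adjusted p = 0.000111). LBD16, an auxin-induced factor of lateral root initiation, stood at 4.07, 4.49, 4.32 and 4.31 untreated and at 3.40, 3.49, 3.53 and 3.54 with BA. It fell by 0.81 (SE 0.11, limma adjusted p = 0.00835), with no overlap of arrays. LBD29, which acts in the same step, had a change of -0.54 ± 0.13 that missed the threshold (limma adjusted p = 0.0673), and LOB one of -0.28 ± 0.10. JAG, a zinc finger factor of leaf and petal growth, rose by 1.00 ± 0.13 (limma adjusted p = 0.00732), from 3.86, 4.22, 4.24 and 4.23 to 5.08, 4.96, 5.01 and 5.49. RTFL7, of the ROTUNDIFOLIA-like small peptides that restrain cell proliferation, rose by 1.24 ± 0.17. It was the only called member of 20 measured CLE and RTFL peptide genes, against 2.41% of all genes called. LOJ (LATERAL ORGAN JUNCTION) rose by 0.96 ± 0.11. Falls of smaller size were called for the transcription factors bZIP44 (0.90, SE 0.17), MYBC1 (0.76, SE 0.16) and MYR2 (0.56, SE 0.11). The 13 measured SAUR and Aux/IAA auxin-response genes had a median change of -0.04 with 0 called, against 2.41% of all genes.

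The other called genes with a symbol have varied roles. BAT1, an acyltransferase that acts on brassinosteroids, measured 5.00, 5.00, 5.08 and 5.69 untreated and 3.63, 3.80, 3.84 and 4.05 with BA. It was lower on all BA arrays and fell by 1.36 (SE 0.14, limma adjusted p = 0.00244). CwINV6, named as a cell wall invertase and annotated as a fructan exohydrolase, stood at 5.97, 6.00, 5.78 and 5.80 untreated and at 4.34, 4.84, 4.64 and 4.77 with BA. The fall of cwINV6 was of 1.24 (SE 0.13, limma adjusted p = 0.00247), again without overlap. SWEET16, a sugar transporter of the vacuole, rose by 0.56 ± 0.12. GAMMA-VPE, a vacuolar protease of senescing tissue, measured 10.32, 10.17, 10.33 and 10.18 untreated and 9.35, 9.37, 9.69 and 9.37 with BA. It fell by 0.80 (SE 0.11, limma adjusted p = 0.0083), with all BA arrays below all untreated ones. CML41, a calmodulin-like protein, fell by 1.63 (SE 0.26) with BA and had 1.94 with H2O2. PDC2, a pyruvate decarboxylase, fell by 0.52 (SE 0.11) and IQD16, an IQ-domain protein, by 0.72 (SE 0.13). Rises were called for the sulfurtransferase STR18 (1.15 ± 0.19), the RING-finger gene ATL8 (0.97 ± 0.20), DECOY (0.83 ± 0.11), HLL, a mitochondrial ribosomal protein needed for ovule growth (0.63 ± 0.12), TRM25 (0.61 ± 0.10), the meiosis gene ATMND1 (0.61 ± 0.13) and the methionine aminopeptidase MAP1A (0.44 ± 0.10). The calls of SWEET16, PDC2, MAP1A and MYBC1 were lost whichever array was left out, and those of HLL, ATMND1, GSTU27, MYR2, ATMDAR2, PMEPCRF and FMO held in only 1 of these 8 fits. The genes with a symbol were singled out because they are all the called genes that carry one, 51 of 398 in all with 32 higher and 19 lower.

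Most called genes are known here by locus code only, 347 of 398, and some of the largest changes were among them. AT4G11190 measured 5.48, 5.75, 6.25 and 6.08 untreated and 8.24, 8.38, 9.02 and 9.18 with BA. Its rise of 2.81 ± 0.12 (limma adjusted p = 9.29e-06) was next in size to that of ARR15, and both conditions were tight within a genotype. AT2G30540 stood at 2.54, 3.25, 3.35 and 3.88 untreated and at 5.97, 5.66, 5.86 and 6.03 with BA, a rise of 2.62 ± 0.20. AT5G26260 rose by 2.03 ± 0.19, AT1G64590 by 2.02 ± 0.25, AT5G47980 by 1.90 ± 0.20 and AT4G03610 by 1.82 ± 0.11. All of these kept their calls whichever array was left out. AT3G15720 rose by 1.78 ± 0.26, AT5G14650 by 1.72 ± 0.21 and AT1G28100 by 1.66 ± 0.10. AT5G14650 started higher in crf6, at 7.35 and 7.72, than in WT, at 4.86 and 5.92, so that its BA arrays in WT lay below its untreated arrays in crf6. AT1G34520 and AT5G05965 both rose by 1.59, with SEs of 0.29 and 0.32, and kept their calls in 3 and 2 of the 8 fits that left out 1 array.

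Among the falls by locus code, AT1G29020 measured 4.48 and 4.47 in untreated WT, 5.39 and 5.54 in untreated crf6 and 2.81, 3.01, 2.81 and 2.90 with BA. The BA arrays of both genotypes met at the same low level. It fell by 2.09 (SE 0.19, limma adjusted p = 0.00118). AT3G20380 had a change of -1.91 ± 0.24, AT4G00910 of -1.72 ± 0.13, AT1G05700 of -1.69 ± 0.21, AT1G29025 of -1.61 ± 0.32 and AT5G57625 of -1.59 ± 0.31, each called as lower. The calls of AT1G29025 and AT5G57625 each held in only 2 of the 8 fits that left out 1 array. With H2O2, which shares the untreated arrays, the values were -3.06 for AT3G20380, -1.79 for AT4G00910, -2.54 for AT1G05700, -1.65 for AT1G29025 and -2.04 for AT5G57625. Falls were also called for AT5G19890 (-1.54 ± 0.17), AT4G15390 (-1.51 ± 0.20), AT1G49470 (-1.48 ± 0.16), AT4G14020 (-1.47 ± 0.22) and AT1G54890 (-1.42 ± 0.23). With H2O2 these had -2.15, -2.15, -0.49, 0.73 and -1.17 in the same order, where AT4G14020 was of opposite sign and, like AT1G49470, was not called. In AT4G15390 the untreated WT arrays, at 5.34 and 5.69, were below or close to the BA arrays of crf6, at 5.60 and 5.96, since the gene was higher in crf6 under both conditions.

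Called genes with neighbouring locus numbers changed in the same direction in 13 pairs of rises and 2 pairs of falls. The pairs included RR16 with AT2G40700 (0.73), AT4G11190 with AT4G11210 (1.50), AT5G47980 with AT5G47950 (1.32), ROXY2 with AT5G14050 (0.84) and AT1G29020 with AT1G29025. AT5G23350, AT5G23360 and AT5G23370 rose by 0.75, 0.88 and 0.89. How many such pairs other genes would give was not computed.

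Pooling averages over the genotypes, and the response was therefore set out in each. Fitted with 4 group means, 30 genes were called in WT alone (0.181%) and 36 in crf6 alone (0.218%). All 398 pooled calls had the same direction in both genotypes, which the choice by pooled change largely fixes. The difference of the response, crf6 minus WT, gave 0 called genes in limma among 16548, with 533 at an unadjusted p under 0.05 (3.22%), and the median SE of this difference was 0.26. The lowest unadjusted p-values belonged to genes that are not pooled calls, for which the genotypes had opposite signs. AT4G29870 had 0.66 in WT and -0.73 in crf6, AT5G26300 had 0.43 and -1.25, and AT4G23420 had -0.26 and 1.08, with limma adjusted p-values that all round to 1.00. AT1G29020 had changes of -1.57 in WT and -2.60 in crf6, a difference of -1.04 ± 0.21 that also was not called. For NAI1 the difference was 0.14 ± 0.22, for UGT76C2 -0.03 ± 0.23, for LBD16 0.05 ± 0.24 and for ATC 0.49 ± 0.37.

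**Figure D3:**
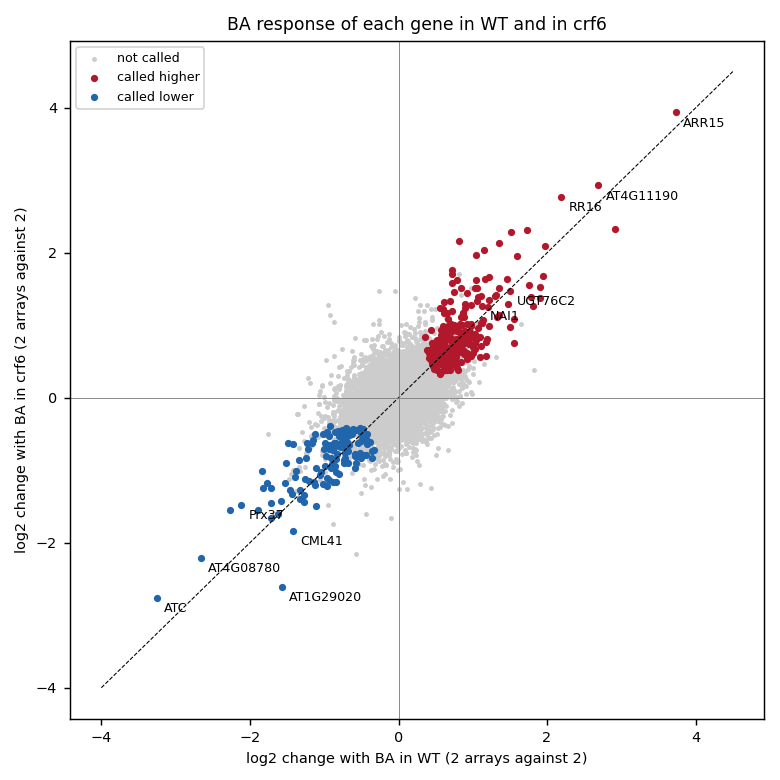
Log2 change with BA in WT (horizontal) and in crf6 (vertical) for 16548 genes, each from 2 arrays against 2, with called rises in red, called falls in blue and equal change as a dashed line. ARR15 lies at 3.73 and 3.94 and ATC at -3.25 and -2.76, and AT1G29020 lies off the line at -1.57 and -2.60.

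The CRF6oe seedlings give the same treatment on arrays that the pooled comparison does not use. Their arrays correlated with the 8 arrays at only 0.917 to 0.947 over genes, and whether this comes with the genotype or with the array set cannot be told apart. Of the 261 pooled rises, 233 (89.3%) had a positive change in CRF6oe, against 60.4% of all genes with a positive pooled change, and 15 were called there. Of the 137 pooled falls, 126 (92.0%) had a negative change, against 52.1% of all genes with a negative pooled change, and 6 were called. The median change of the pooled rises was 0.42 in CRF6oe and 0.75 in the pool, and that of the pooled falls -0.44 and -0.77, where the pooled medians rest on the values that chose the genes. With 2 arrays against 2, 35 genes were called in CRF6oe (0.212%). ARR15 rose there by 3.81 ± 0.35, RR16 by 3.71 ± 0.30, UGT76C2 by 1.79 ± 0.21 and AT4G11190 by 3.19 ± 0.22 (limma adjusted p = 9.4e-05, 1.74e-05, 0.00204 and 9.64e-06). NAI1 had 0.76 ± 0.22, NAI2 0.73 ± 0.24, NRPA2 0.54 ± 0.23 and Prx37 -1.02 ± 0.42 in CRF6oe, none of them called.

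Some pooled rises had no positive change in CRF6oe. BGLU47 measured 2.84 and 3.40 on the untreated CRF6oe arrays and 2.99 and 3.20 with BA, a change of -0.03 ± 0.26 against 1.75 in the pool. EXPB3 measured 5.73 and 5.44 untreated and 5.37 and 4.73 with BA, a change of -0.53 ± 0.30 against 1.64, and all of these levels were below those of untreated WT. EXPA15 had -0.01 ± 0.35 against 1.35. The test of CRF6oe minus pool gave 0 called genes in limma (825 at an unadjusted p under 0.05, 4.99%), with adjusted p = 0.26 for both BGLU47 and EXPB3 and 0.816 for EXPA15. ATC had -1.19 ± 0.58 in CRF6oe, where its untreated arrays stood at 3.65 and 6.13 and its BA arrays at 3.81 and 3.58, so that 1 untreated array lay among the BA values.

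**Figure D4:**
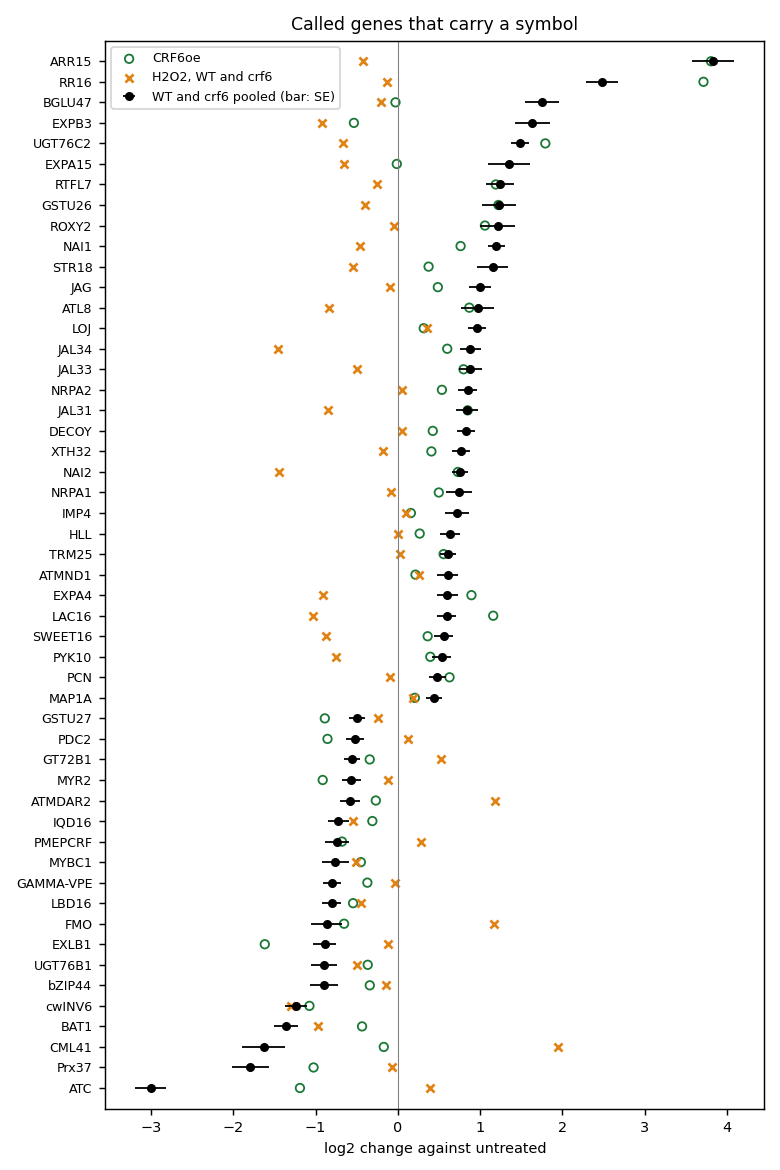
Log2 change against untreated of the 51 called genes that carry a symbol, pooled over WT and crf6 with BA (black, bar: SE), in CRF6oe with BA (green circles, 2 arrays against 2) and in WT and crf6 with H2O2 (orange crosses). ARR15, RR16 and UGT76C2 have CRF6oe values of 3.81, 3.71 and 1.79, BGLU47, EXPB3 and EXPA15 have -0.03, -0.53 and -0.01, and the H2O2 values share their untreated arrays with the black points.

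Several gene groups held no called gene. With 2.41% of all genes called, groups of this size can hold none, and only their values are given. The 63 measured plastid-encoded genes had changes from -0.32 to 0.23 with a median of -0.04. Their median untreated level was 13.10, and the highest value of any feature on the 8 arrays was 13.99, on crf6 BA replicate 2. Whether signals so near the top of the scale can show a rise was not tested. The 4 light-harvesting antenna genes ranged from -0.19 to 0.03, and 14 nitrate and sulfate transporters had a median of -0.01. The 8 histone genes had a median of 0.06 and the 7 WRKY factors of 0.01. The 3 heat shock proteins had a median of -0.15. MYB factors, extensins and dirigent proteins had no member measured under the words used to list them, and mitochondrion-encoded genes had none by chromosome. AP2/ERF and NAC factors, aquaporins and cytosolic ribosomal proteins had 1 each, with changes of -0.02, 0.07, -0.05 and 0.37 and no call. Members known here by locus code only can be missing from lists matched by words, so these families may hold called genes.

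Calls near the threshold were finely placed. AT4G01600, with a change of -0.73 ± 0.16, was just inside at a limma adjusted p of 0.0499, and AT4G31640, with -0.46 ± 0.10, just outside it. Of the 398 called genes, 60 of the 261 rises and 49 of the 137 falls were called in all 8 fits that left out 1 array. ARR15, RR16, UGT76C2, NAI1, NAI2, JAL34, NRPA2, EXPB3, BGLU47, XTH32, JAG, LOJ and RTFL7 were among these rises.

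**Figure D5:**
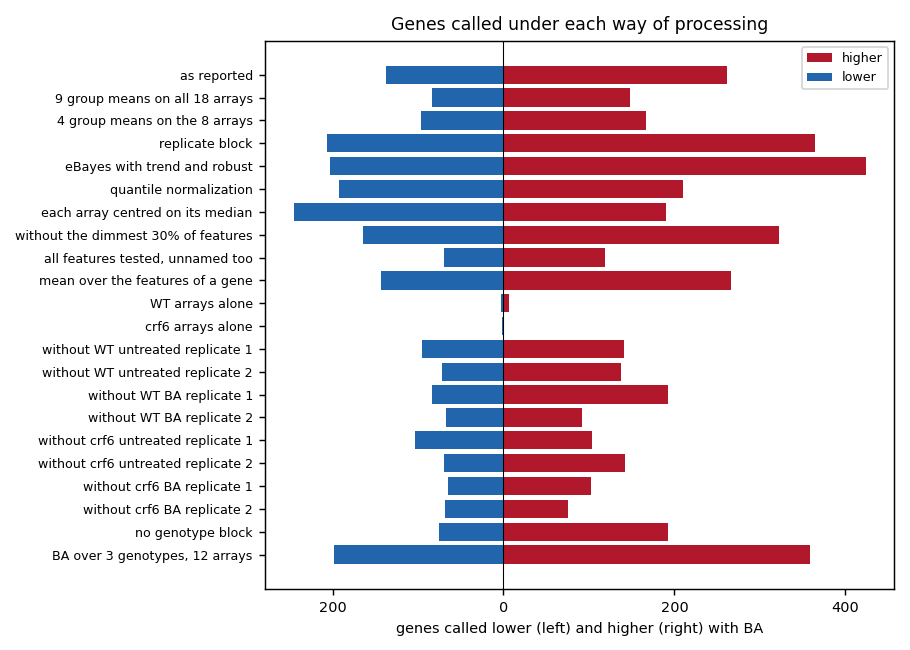
Number of genes called higher (red, right) and lower (blue, left) with BA under each way of processing, by fit, normalization, filter and arrays left out. The count as reported is 261 higher and 137 lower, centring each array gives 190 and 245, and WT or crf6 arrays alone give at most 9 calls in all.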

How the data were processed

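The authors deposited 1 value per feature and array, here taken as log2 from the deposited values themselves, whose array medians ran from 4.63 to 4.98. How they corrected, normalized and summarised the arrays is not stated in the labels or the file, and no further scaling was applied. Per the labels, poly(A)-primed cRNA was biotin-labelled and hybridised singly. Of 38408 features, the platform's probe table paired 16722 with exactly 1 gene, of which 16670 matched RefSeq (TAIR10.1). It gave 759 several genes and did not list 20927. The brightest of several features stood for a gene, leaving 16548 genes. Testing was done in R 4.3.3 with limma 3.58.1, on a model of genotype and treatment on 8 arrays (5 residual and 4.63 prior degrees of freedom), two-sided, with Benjamini-Hochberg adjustment over the 16722 features. Models with 4 group means (WT, crf6 and their difference) and 9 group means on 18 arrays (CRF6oe, H2O2) served the other contrasts. The procedure was tested on simulated data.

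The arrays and lists were chosen with earlier results of these data known. Named genes are the 15 called rises and 15 called falls of largest size whose arrays do not overlap within a genotype, all measured cytokinin genes, up to 4 called members of each other list, and 3 genes with the lowest p for the genotype difference. Called genes with a symbol, and 5 lists (ER body and jacalin-related lectin, ribosome assembly, beta-glucosidase, peptide and lateral organ boundaries genes), were added after values were seen. Lists were matched by locus code or RefSeq words, and organelle lists by RefSeq chromosome. Lists matched by words can miss members known by locus code only. Same-numbered BA and untreated arrays deviated from their group means with a correlation of 0.33 in WT and 0.06 in crf6. Alternatives were other fits, scaling, filters, feature choice and leaving out arrays.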

Additional observations from a re-analysis of the deposited data

Results flagged for a closer look

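Features with no single gene name here enter none of the gene counts. In a fit of all 38408 features, 285 of the 21686 unnamed ones were called higher with BA and 62 lower, with changes from -2.11 to 3.81 on the log2 scale. The same fit called 119 named genes higher and 69 lower.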

How the results depend on the processing

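None of the 77 named and called genes changed direction under any of the alternatives. Their arrays do not overlap within either genotype, which largely fixes the direction under most alternatives, so this gives the calls no separate support. The number of calls varied. From 261 higher and 137 lower (398) it became 148 and 84 (232) with 9 group means on 18 arrays. With 4 group means it was 167 and 96 (263). A trended, robust eBayes gave 424 and 203 (627), all features tested gave 119 and 69 (188), and 2-fold or more gave 58 and 42 (100). Centring each array moved the median change of all genes to -0.10 and gave 190 and 245, and quantile normalization gave 210 and 193. WT arrays alone gave 6 and 3 (9) and crf6 arrays alone 1 and 2 (3), with fewer arrays and degrees of freedom. Without the genotype block, chosen after seeing the data like the 12-array fit, 192 and 76 were called, and BA over 3 genotypes on 12 arrays gave 359 and 198. A replicate block on same-numbered arrays gave 365 and 206 (571), and the labels do not tell whether such arrays share more than a number.

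Leaving out 1 array gave 75 to 193 rises, 65 to 104 falls and 143 to 277 in all. The totals were 236 and 210 without WT untreated replicates 1 and 2, 277 and 159 without WT BA replicates 1 and 2, 208 and 211 without crf6 untreated replicates 1 and 2, and 167 and 143 without crf6 BA replicates 1 and 2. Fewer arrays enter each of these fits, and other causes were not tested. The crf6 minus WT difference had 0 called genes under every alternative run for it, with 283 to 899 genes at an unadjusted p under 0.05. Of the 77 named and called genes, 521 of 1693 values under an alternative missed the threshold, and 10 of 1230 values of the 57 uncalled ones passed it. Dim features could not be told from background, since no detection values were used.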
